A study of Talpa occidentalis with 2 samples.

Results

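Toll-like receptors are the membrane proteins with which animal cells recognise conserved molecules of microbes. The genes described here are TLR1 to TLR10, chosen by symbol in the gene annotation that accompanies a 4C-seq study of the FGF9 promoter in the Iberian mole, Talpa occidentalis. All 10 symbols were found, with 10 gene models among the 23336 of the annotation. The 4C libraries came from wild-type embryos of embryonic day 15, 1 from forebrain and 1 from hindlimb, with no replicates. The annotation, of mole build talOcc3, has no column for either library, so no receptor has a value per tissue and contacts were not analysed here. What follows describes the structure and place of the receptor genes in 1 assembled genome, for which read depth is unknown, and no statistical test applies.

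Each receptor is built from an ectodomain of leucine-rich repeats, which binds the microbial molecule, a membrane-spanning stretch and an inner TIR domain, which gathers adaptor proteins such as MYD88. In human, TLR1, TLR2, TLR4, TLR5, TLR6 and TLR10 act mainly at the cell surface. TLR3, TLR7, TLR8 and TLR9 act in endosomes, where they meet nucleic acids. TLR2 senses bacterial lipopeptides together with TLR1 or TLR6. TLR4 senses lipopolysaccharide and TLR5 flagellin. TLR3 binds RNA duplexes, TLR7 and TLR8 bind single-stranded RNA and TLR9 binds DNA with unmethylated CpG. Their coding sequences are known for few introns: in human, most receptors carry nearly the whole protein in a single large exon, while TLR3 is divided further.

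No receptor had an extra model. Each of the 10 symbols had 1 model, so 0 had at least 2, against 14.6% of the 16075 symbols in the annotation. Models without one of these symbols whose target carried a Toll-like receptor name numbered 0. A receptor target recorded under another name or identifier would be missed by this count. There were 0 models named TLR11, TLR12 or TLR13, which are receptors known from the mouse. The 10 models lay on 6 scaffolds, numbered here as in the annotation: 3 on scaffold 10, 2 on scaffold 1, 2 on scaffold 24 and 1 each on scaffolds 12, 13 and 14. The annotation of each of these 6 scaffolds reached far beyond 1 Mb, the shortest to 34.0 Mb. FGF9, the viewpoint of the 4C libraries, lay on scaffold 38, which held 0 receptors. There were 4 models on the plus strand and 6 on the minus strand, and 0 were overlapped by another model.

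Most receptor models were intronless. A single coding exon was found in 7 of 10, against 24.7% of all models. The source of the models differed as well. The protein aligner exonerate placed 8 of the 10 receptors, against 25.5% of all models, and 79.4% of all exonerate models had 1 coding exon, so within the same source the shares were close. The other 2 receptors, TLR4 and TLR9, came from EVM, which combines several lines of evidence and gave 1 coding exon to 0.494% of its models. Whether the program or the gene sets the exon number of a receptor was not tested.

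The intronless receptors were long for intronless models. Their coding lengths lay between 2355 and 3147 bases with a median of 2424, against a median of 573 bases for all 5771 single-exon models. Of all single-exon models, 1.01% were as long as the shortest of these receptors, TLR2, or longer, and of the single-exon models from exonerate 0.826%. Over all 10 receptors the median coding length was 2517 bases, against 1011 bases over all models. These are shares and medians of 1 annotation and carry no p-value.

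**Figure D1:**
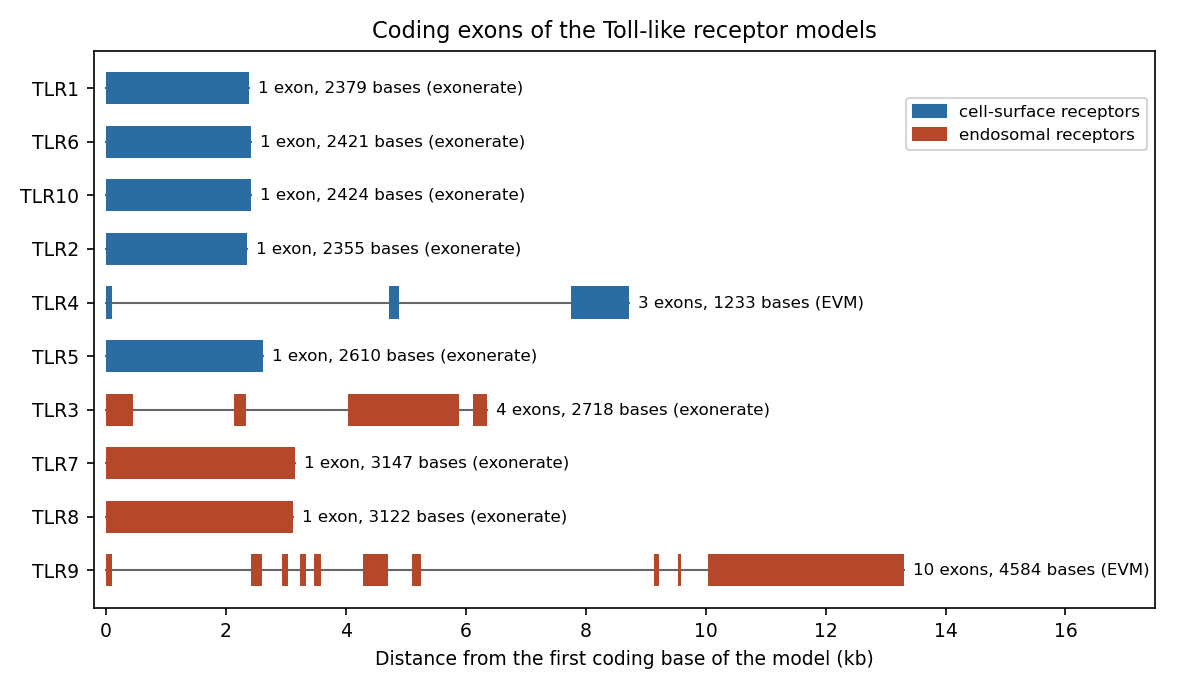
Coding exons of the 10 receptor models, drawn to scale from the first coding base of each model on its own strand (kb), with boxes for exons and lines for introns. The 7 models with 1 exon are similar in size, TLR4 ends in an exon of 970 bases, and TLR9 has 9 small exons ahead of one of 3275 bases.

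**Figure D2:**
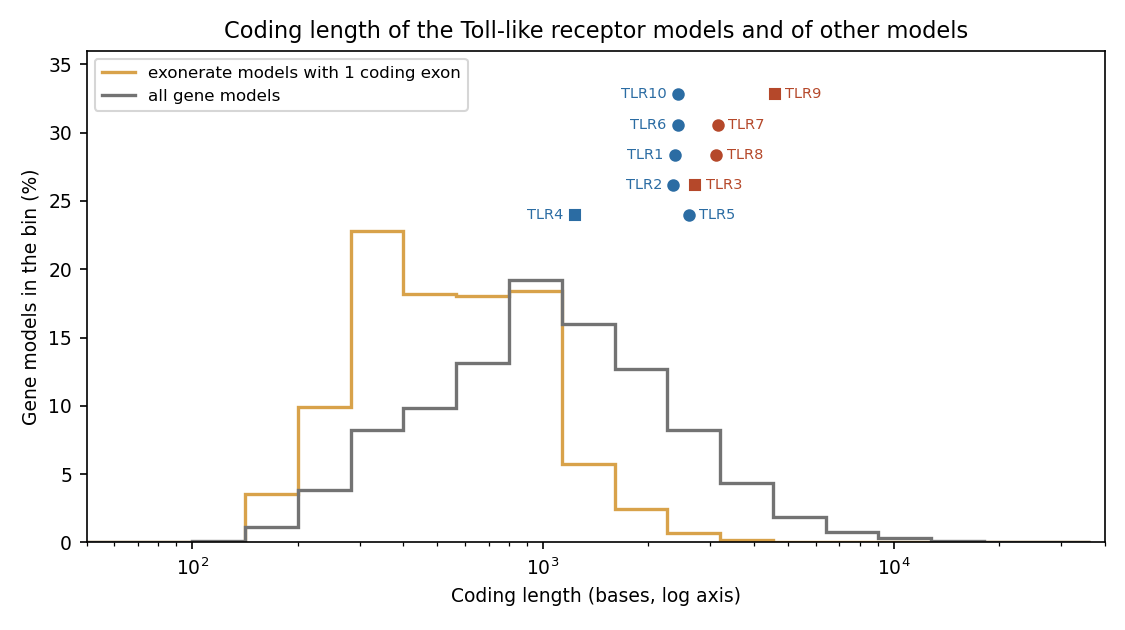
Percent of models per bin of coding length (bases, log axis) for exonerate models with 1 coding exon and for all models, with the receptors marked above at their own lengths (circles, 1 coding exon; squares, several; blue, cell-surface; red, endosomal). The height of a marker carries no value. Except for TLR4, the receptors lie to the right of the bulk of both distributions.

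The receptors of the TLR1 subfamily, TLR1, TLR2, TLR6 and TLR10, had models of similar length. TLR6 had 2421 coding bases at 43794987 to 43797407 on scaffold 10. TLR1, which shares with TLR6 the role of partner for TLR2, had 2379 at 43809389 to 43811767. TLR10, whose ligands are the least settled of the family, had 2424 at 43824547 to 43826970. TLR2 lay apart from them, on the minus strand of scaffold 1 at 89246102 to 89248456, with 2355 coding bases. RNF175, a ring finger gene, and SFRP2, a secreted Wnt modulator, followed TLR2 on the lower side at 12.9 kb and 43.5 kb, and KIAA0922 stood 18.6 kb away on the other side. All 4 models had 1 coding exon with a whole number of codons, and their lengths lay within 69 bases of each other.

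TLR6, TLR1 and TLR10 formed a head-to-tail cluster. All 3 stood on the plus strand of scaffold 10, and the cluster measured 32.0 kb from edge to edge. The gap between TLR6 and TLR1 was 11.981 kb, and that between TLR1 and TLR10 was 12.779 kb. The median gap between successive models of the annotation was 16.7 kb. Within the cluster there were 0 other models, and the 3 coding sequences filled 22.6% of its length.

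In RefSeq's gene table for another mole build, MPIMG_talOcc4v2.1, TLR10, TLR1 and TLR6 were neighbours in the same order. By start position that table lists 1 further feature, a pseudogene without a symbol, between TLR1 and TLR6. The flanks were the same in both tables. KLF3, a zinc finger repressor gene, followed TLR10 with 37.1 kb between the edges, and FAM114A1 stood on the side of TLR6, 17.6 kb away. The human order runs KLF3, TLR10, TLR1, TLR6, FAM114A1, and all of these successive pairs were kept in the mole.

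TLR5 was the longest of the cell-surface receptors. Its single exon of 2610 bases lay on the plus strand of scaffold 14, at 59081814 to 59084423. SUSD4 stood 58.4 kb away on the lower side. DISP1, which encodes a protein needed to release hedgehog ligands, stood 66.9 kb away on the other side. BMS1P20_copy33 followed at 263 kb. The last annotated base of scaffold 14, 354 kb beyond TLR5, was the end of FUNDC2_copy2, and no gene was annotated farther out on that side.

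TLR4 was the exception in size. Its EVM model, on the minus strand of scaffold 1 at 63374688 to 63383411, had 3 coding exons of 96, 167 and 970 bases, separated by introns of 4625 and 2866 bases. Together the exons made 1233 coding bases, or 411 codons. Human TLR4 also has 3 coding exons, of which the last carries most of the protein, and in the mole model the last exon carried 78.7% of the coding bases. The other cell-surface receptors had between 2355 and 2610 coding bases, so the TLR4 model was shorter than each of them. Its matched target part ran from base 299 to base 1526, a span of 1228 bases, whereas the other 9 receptors matched target parts of 2351 to 3141 bases. The annotation holds no other TLR4 model that matches a later part of the target. The cause of the short model was not tested.

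By total coding length the endosomal receptors had longer models than the cell-surface ones, with no overlap between the groups. Coding length lay between 2718 and 4584 bases in the 4 endosomal receptors, with a median of 3134.5. In the 6 cell-surface receptors it lay between 1233 and 2610 bases, with a median of 2400. The highest value belonged to TLR9, of which 1491 bases lay outside the recorded match, and the lowest to the short TLR4 model. By the longest exon of each model the groups overlapped, since it lay between 1853 and 3275 bases in the endosomal receptors and between 970 and 2610 bases in the cell-surface ones. They overlapped by matched target part too, which spanned 2711 bases in TLR3 and 3002 in TLR10. This is a description of 10 genes of 1 family, and members that arose by duplication are not independent of each other.

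Of the 8 receptors that exonerate placed, TLR3 alone was divided into several exons. It lay on the minus strand of scaffold 13 at 44633505 to 44639851, with 4 coding exons of 450, 192, 1853 and 223 bases, 2718 in all. The introns measured 1686, 1707 and 236 bases. Human TLR3 also has 4 coding exons. FAM149A began 5.50 kb away on the lower side, and CYP4V2, an omega-hydroxylase gene, followed with a partial second model, CYP4V2_copy3, between them. On the other side the nearest model was SORBS2, across 267.9 kb.

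TLR7 and TLR8 stood side by side on the minus strand of scaffold 24, as single exons of 3147 and 3122 bases. TLR7 lay at 29540230 to 29543376 and TLR8 at 29514447 to 29517568. The gap between them was 22.7 kb with 0 models, and RefSeq also placed 0 features between them. In the human genome the pair is X-linked, with the nucleotide synthesis gene PRPS2 beside TLR7 and the actin-binding peptide gene TMSB4X beside TLR8. The mole annotation held the same flanks, with PRPS2 73.2 kb from TLR7 and TMSB4X 21.8 kb from TLR8.

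TLR8 differed from TLR7 in frame and in score. It was the only receptor whose coding length was not a multiple of 3, with 2 bases left over after 1040 codons, which makes 1 of 10 receptors against 12.2% of all models, 29.6% of exonerate models and 5.11% of EVM models. TLR8 also had the lowest deposited score for its length. The authors' score of a transcript for its match to the target was 2115 over 3122 matched bases for TLR8, or 0.68 per base, and 3662 over 3141 for TLR7, or 1.17 per base. The labels and the annotation do not say how the authors calculated it, so the ratio serves only to set models side by side. Over all 21471 matched models, 14.5% had a ratio as low as that of TLR8 or lower, and 21.8% as low as that of TLR4, at 0.83, or lower. The median ratio was 1.06 over the receptors and 1.20 over all matched models. The cause of the left-over bases and of the low ratio was not tested.

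**Figure D3:**
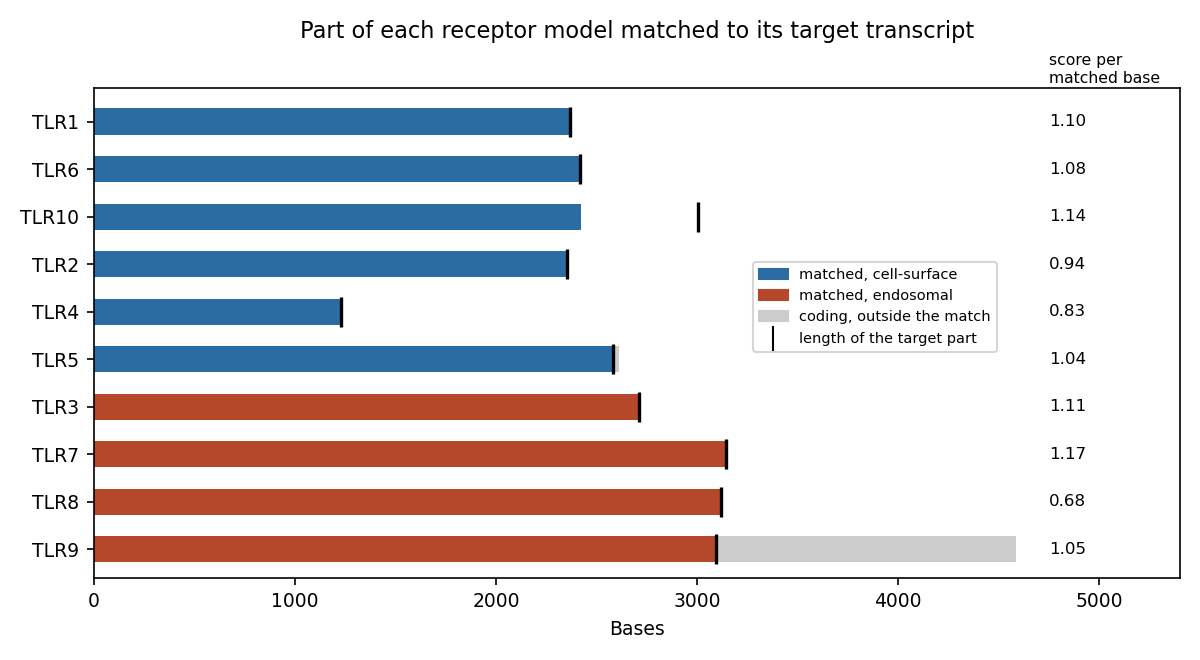
Coding bases of each receptor model (bars) inside and outside the part matched to its target transcript, with the length of the matched target part as a black tick and the deposited score per matched base at the right. Bars show lengths, not positions in the model. The target part of TLR10 is 578 bases longer than its model, and 1491 bases of TLR9 are unmatched.

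The matched parts single out TLR9 and TLR10. In 9 receptors the match covered 98.7% to 100% of the coding bases, whereas in TLR9 it covered 67.5%. The unmatched part of TLR9 measured 1491 bases, a length reached by 1.09% of matched models. In TLR10 the target part, from base 70 to base 3071, spanned 3002 bases against 2424 in the model, an excess of 578 bases that 1.28% of matched models equalled or exceeded. In the other 9 receptors the spans differed by at most 3 bases.

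TLR9 had the largest model of all 10. It lay on the minus strand of scaffold 12 at 36111777 to 36125082 and held 10 coding exons and 4584 coding bases over 13.3 kb. The last exon measured 3275 bases, and the 9 exons before it measured 1309 bases together, none of them longer than 417. The recorded match to a TLR9 transcript spanned 3093 bases of the model. Whichever end the match is counted from, at least 1784 of these fall in the last exon, since the other exons together are shorter than the match. Nearly the whole of human TLR9 is encoded by a single exon.

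The human neighbour of TLR9 on that side was not found there. In human, TWF2, which encodes the actin-binding protein twinfilin, stands between TLR9 and PPM1M. In the mole annotation TLR9 was followed directly by PPM1M, with 10.9 kb between the edges. The only TWF2 model lay on scaffold 10423, whose last annotated base is 1040, and it had 2 coding exons of 417 and 168 bases with an intron of 404 bases. Its match covered bases 761 to 1201 of a TWF2 transcript. Exon 6 of the TLR9 model also measured 417 bases and was also followed by an intron of 404 bases, and then by an exon of 145 bases. An exon of 417 bases occurred in 48 models, and the combination with a next intron of 404 bases in 2, TLR9 and TWF2. This comparison was made after the exon lengths were seen.

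RefSeq did not list TLR9 or TWF2 by symbol. Between ALAS1, the first enzyme of haem synthesis, and PPM1M it placed 1 feature, a protein-coding gene without a symbol, where the deposited annotation has TLR9. The other 9 receptors were found there by symbol. Whether the small exons belong to TLR9, to TWF2 or to a transcript that reads through both was not tested, since no sequence was read.

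Neighbours were next compared between the annotation and the RefSeq table. Of the 9 receptors listed there, 7 had the same nearest symbols on both sides in both tables by the names as deposited, against 58.2% of all symbols with 1 model, compared in the same way. TLR2 made it 8 once KIAA0922 was read as TMEM131L, a renaming that was not applied to the other symbols. Receptors of the TLR6, TLR1 and TLR10 cluster and of the TLR7 and TLR8 pair are among each other's nearest symbols. The same locus is thus counted more than once. The remaining receptor was TLR4. Its nearest models with a symbol were a single-exon RFWD3_copy2 of 231 bases, 99.3 kb away, and ASTN2, 388 kb away. RefSeq gave TRIM32 and BRINP1, and in the deposited annotation TRIM32 lies inside ASTN2. Outside ASTN2 itself, RefSeq held 0 protein-coding genes between ASTN2 and TLR4. Past RFWD3_copy2, the next symbol on that side was BRINP1, 1312 kb from TLR4, and RefSeq held 0 protein-coding genes between TLR4 and BRINP1.

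TLR4 and TLR9 stood at opposite ends in gene density. Within 1 Mb of the TLR4 start there were 6 other gene starts, and 14.7% of all models had as few or fewer. Within 1 Mb of the TLR9 start there were 56, and 19.3% of all models had as many or more. TLR5 had 13, in a window that runs past the last annotated base of scaffold 14, TLR7 and TLR8 had 20 each, and the other 5 receptors had 24 or 25. The median was 24 for the receptors and 25 for all models.

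**Figure D4:**
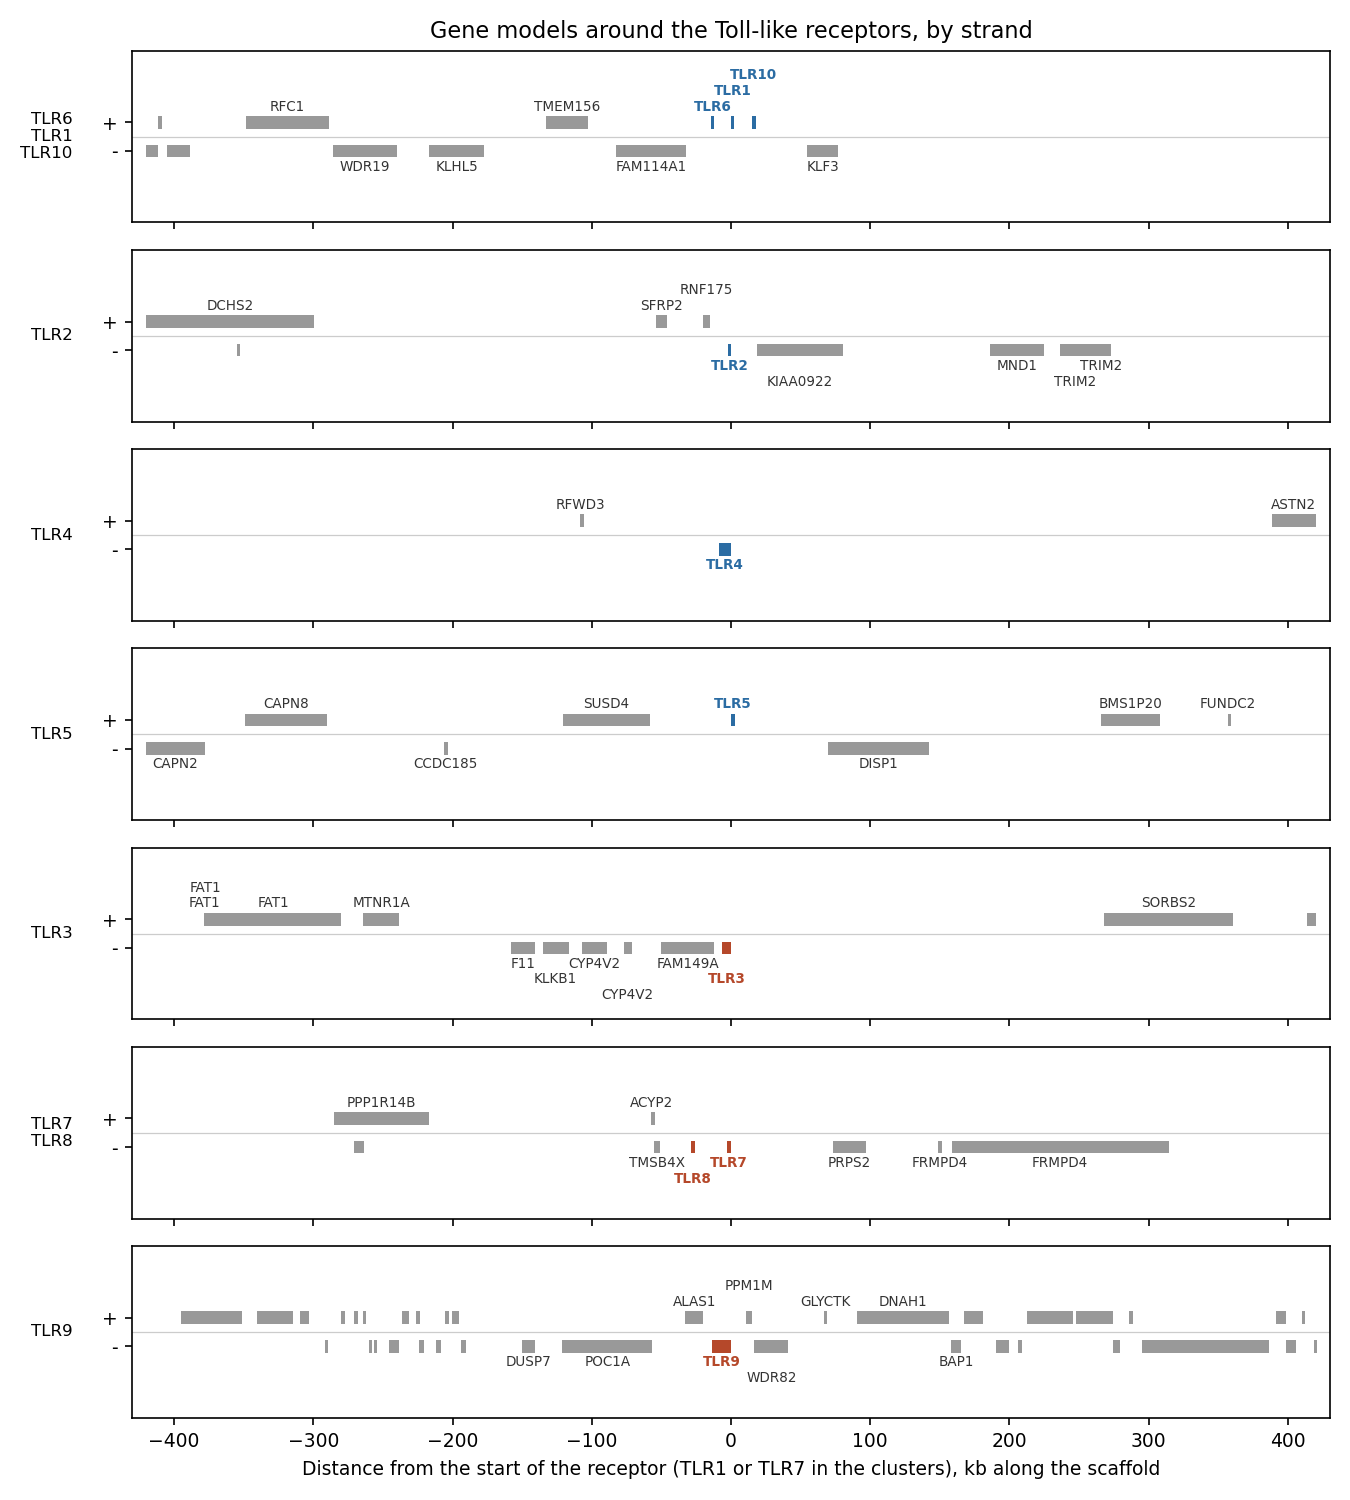
Gene models around each receptor, placed by distance from its start along the scaffold (kb) and by strand; receptors are blue (cell-surface) or red (endosomal) and other models grey, with labels for nearest neighbours and for genes of the human order. TLR4 stands almost alone, with ASTN2 388 kb away, and TLR9 lies among closely spaced genes.

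The surroundings of the receptors were also set against the human gene order. A list of 56 genes in 7 blocks around the human receptors, written from general knowledge, gave 55 genes with a model and 48 successive pairs. Any listed gene without a model was passed over, so that genes on either side of it counted as successive. A pair counted as kept when both genes lay on 1 scaffold with their starts within 2 Mb. By this rule 45 pairs were kept and 3 were not, and of the 17 pairs that include a receptor, 16 were kept. This rule asks for nearness and not for order, and no share over other gene pairs stands beside it. Order was read separately: 52 of the listed genes lay on the scaffold of their receptor, and in all 7 blocks their starts ran in the listed order or its mirror image, whatever other genes stood between them. KIAA0922 was read as TMEM131L, the name that RefSeq gives to the same neighbour of TLR2.

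The 3 pairs that were not kept lay beside TLR9 and TLR5. TLR9 with TWF2 and TWF2 with PPM1M were not kept, as the only TWF2 model lies on scaffold 10423. The third was BROX and DISP1, next to TLR5: DISP1 stayed beside TLR5 on scaffold 14, and BROX lay on scaffold 35 at 722492 to 737796. In the RefSeq order 52 of the 56 listed genes were found by symbol, and TLR9, TWF2 and CYP4V2 were not among them. Genes on either side of a missing one were paired there, as ALAS1 with PPM1M and FAM149A with KLKB1. Of the resulting 45 pairs 44 were kept, and BROX and DISP1 was the pair that was not. The pairs from DISP1 through TLR5, SUSD4, CAPN8 and CAPN2 to TP53BP2 were kept in both tables.

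Related genes were read from a list of 52 symbols. In it, 44 were listed as partners of the receptors and 8 under the interleukin-1 receptor family, which also has a TIR domain. SIGIRR, a further member of that family, was listed as a partner. A model was found for 47 of the 52, and 7 of these (14.9%) had at least 2 models, close to the 14.6% of all symbols. Of the 44 partners of the receptors, 40 had a model and 5 of these (12.5%) had at least 2. The receptors had a median of 1 coding exon and 2517 coding bases, against 7.5 exons and 1413 bases for the 40 partners. By the model used, 0 of the partners were intronless. EVM made 36 of the partners' models, ALN 4 and exonerate 0, so the source differs between the lists together with the exon number.

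Among the adaptors, MYD88, which serves nearly all receptors, had 4 coding exons but only 642 coding bases, and its match began at base 551 of the target. TIRAP, which bridges MYD88 to TLR2 and TLR4, had 3 exons and 855 bases, and SARM1 had 14 exons and 3822 bases. TICAM1, the adaptor of TLR3, and TICAM2, which links it to TLR4, had no model under these names. LY86, IRF7 and IL18R1 had none either, and RefSeq lists all 5 by symbol.

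Of the partners of TLR4, the carrier protein gene LBP had 16 coding exons and 1446 bases, CD14 had 3 exons and 1134 bases, and LY96, which encodes MD-2, the lipid-binding partner of TLR4, had 5 exons and 480 bases. UNC93B1, which carries the endosomal receptors out of the endoplasmic reticulum, had 7 exons and 1629 bases. Each of these had 1 model. All 19 kinases and ligases on the list had a model, among them IRAK4, the first kinase at MYD88, with 11 exons, and TBK1, which acts on IRF3, with 20.

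The 7 symbols with several models were TRAF3, IKBKE, NFKB1, RELA, IRF3, IL1RAPL1 and IL1RAPL2. The models of NFKB1, RELA, IKBKE, IRF3 and IL1RAPL2 lay within 1 scaffold and strand each. NFKB1 had 3 models that matched bases 468 to 1533, 1962 to 2104 and 2448 to 3144 of 1 target transcript, in separate parts. The models of IL1RAPL2 likewise matched bases 839 to 1528 and 1588 to 2119 of 1 target, so both symbols became 1 model each when models of separate target parts were merged. The pair of RELA, the transcription factor subunit p65, matched different target transcripts, as did those of IKBKE and IRF3. These pairs were therefore not merged, and whether each pair is 1 split gene was not tested. The RELA pair stood end to end on scaffold 18, the first model ending at 3750767 and the second starting at 3750808. TRAF3 had 4 models, 1 on scaffold 29 and 3 on scaffolds 110, 2454 and 2473, of which the most extended was annotated to 0.0827 Mb. Its highest score, 527, belonged to the model of 2 coding exons on scaffold 2473. IL1RAPL1_copy2 was a single exon of 608 bases on scaffold 11, and IL1RAPL1 itself had 8 exons on scaffold 24.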

How the data were processed

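The deposited file is a GFF3 gene annotation of mole build talOcc3. Per its second column, the models come from EVM, exonerate or ALN, whose versions neither the labels nor the file state. The score of each transcript was deposited by the authors together with the matched parts of target and model. The submitters' processing notes name BWA for the 4C reads, which were not analysed here. Columns of samples that were not used numbered 0.

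Models, coding exons and coding lengths were read with Python 3.11.15. A symbol is the model name without copy and low-confidence suffixes, and 21076 models carried one (16075 symbols). Coding exons came from the CDS records of the transcript, and UTRs were not read. Gaps run from edge to edge, gene starts are 5′ ends, and positions count from 1. A RefSeq table of 31603 genes of another build served for names and order only. A drop in start position was read as the start of another sequence there. The text names the members, the 3 nearest symbols on each side, genes of the human order, and pathway symbols with at least 2 models or none. Other pathway genes, and positions noticed in the results, were chosen after their values were seen. Members and lists were chosen with earlier results of these data known. The routines, tested on simulated data, recovered model number, exons and coding length for 400 of 400 symbols. Among 399 simulated pairs they found the 1 pair that was split between scaffolds. The reading of gene order within a scaffold was not tested on simulated data.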

Additional observations from a re-analysis of the deposited data

How the results depend on the processing

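Restricting models to scaffolds of at least 1 Mb, to 300 or more coding bases or to names without a low-confidence mark left 10 receptors. Merging models of separate target parts left 10 as well. The receptor scaffolds reach 34.0 Mb or more and the shortest model, TLR4, has 1233 coding bases. The scaffold and length limits could therefore remove no receptor. Symbols with at least 2 models stayed at 0, which no step could raise, as each only removes or merges models. With 1 model per symbol, choosing the longest or best-scoring model cannot change a value. Joining exons across introns of at most 30 bases left 7 receptors with 1 coding exon. It could not do otherwise, as the shortest receptor intron, in TLR9, measured 129 bases. Counting TLR9 by its longest exon only, chosen after seeing the data, gave 15 coding exons over the family in place of 24, by construction. The RefSeq order put 1 feature among TLR1, TLR6 and TLR10 in place of 0. Median gene starts near a receptor were 12 in a 0.5 Mb window and 36.5 in a 2 Mb window in place of 24, again by construction (14 and 44 over all models). Of the 48 human pairs, 43 were kept with a 1 Mb limit and 45 with a 5 Mb limit. The RefSeq order kept 44 of 45, over a different set of pairs. Without reading KIAA0922 as TMEM131L, 44 pairs were kept. Pathway symbols with at least 2 models ranged from 5 to 7. Comparison with RefSeq protein lengths was not run. No paired analysis was possible because each tissue has 1 library and the annotation has no column for either. Precision is limited by the assembly and its models.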

Other observations

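Interleukin-1 receptors share the TIR domain with the Toll-like receptors. Of the 7 symbols listed under that family that had a model, 4 were clustered. IL18RAP, IL1RL1, IL1RL2 and IL1R1 stood in a row on the minus strand of scaffold 9, over 209.7 kb with 0 other models. They had 8, 9, 7 and 10 coding exons, unlike TLR6, TLR1 and TLR10 with 1 coding exon each. All 4 models came from EVM, and those of TLR6, TLR1 and TLR10 from exonerate. The source thus differs together with the exon number. The others listed under the family lay apart, IL1RAP on scaffold 4, IL1RAPL1 on scaffold 24 and IL1RAPL2 on scaffold 32. SIGIRR, listed as a partner, lay on scaffold 18. In human, IL18R1 stands between IL1RL1 and IL18RAP, and it was among the symbols without a model.

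On a scaffold that also held a receptor lay 5 of the 47 listed symbols with a model (10.6%), against 17.4% of all symbols. Within 1 Mb of a receptor start lay 0 of the 47, against 0.934% of all symbols other than the receptors. MYD88 and IRAK2 shared scaffold 12 with TLR9, their starts 8.80 Mb and 31.0 Mb from that of TLR9. TAB3 lay 12.9 Mb from TLR7 on scaffold 24, which also held IL1RAPL1. IKBKB shared scaffold 13 with TLR3. TLR2 and TLR4, which lie on different chromosomes in human, were both on scaffold 1, with their starts 25.9 Mb apart.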
